A study of Mus musculus with 8 samples.

Results

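The genes of the condensin subunits, 8 in mouse, were set against the list of accessible regions of the series. They were chosen by name: Smc2 and Smc4, which serve both condensin complexes, Ncapd2, Ncapg and Ncaph of condensin I, and Ncapd3, Ncapg2 and Ncaph2 of condensin II. These are 8 of the 21887 protein-coding genes in the annotation used. Around each gene a window was drawn from 50 kb below its lower to 50 kb above its upper outer limit, and every region overlapping it by at least 1 bp was taken. The 8 windows lay on 8 different chromosomes and held 46 of the 76872 regions. The region nearest to the inner side of this 50 kb limit lay 48.7 kb from Ncaph, and the nearest beyond it 54.6 kb from Smc2.

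Condensin is a ring-shaped ATPase that extrudes loops of DNA and compacts chromosomes for mitosis. The SMC proteins Smc2 and Smc4 form its arms and ATPase heads, a kleisin subunit (Ncaph or Ncaph2) joins the heads, and a pair of HEAT-repeat subunits (Ncapd2 and Ncapg, or Ncapd3 and Ncapg2) binds the kleisin and DNA. Condensin II resides in the nucleus through the cell cycle and starts compaction in prophase, whereas condensin I reaches the chromosomes after the nuclear envelope breaks down. Many genes for mitotic proteins are transcribed most strongly late in the cell cycle, in part through the CHR element described below.

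The regions come from ATAC-seq, in which Tn5 transposase cuts and tags open DNA, on a clonal line of mouse induced pluripotent stem cells that carries the FUCCI2 cell cycle reporters. All cells grew on irradiated feeders in medium with serum, LIF, a MEK inhibitor and a GSK3 inhibitor, and 50000 cells entered each library. The design had 8 libraries, 2 replicates in each of 4 groups: cells shaken off in mitosis after 6 hours of nocodazole at 200 ng/ml, such cells 1 hour and 3 hours after the drug was washed out, and untreated asynchronous cells. The labels do not say whether the replicates are separate cultures. The file analysed here is 1 list of regions for all groups, with no value per library, so nothing below describes a change between arrested, released and asynchronous cells, and the depth behind each region is unknown.

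The regions were 73 to 3218 bp wide, with a median of 281 bp, and 20.5% of them lay within 1 kb of an outer limit of a protein-coding gene. Against the labelled cell type, 4 of 5 pluripotency genes (Pou5f1, Nanog, Sox2 and Klf4, but not Esrrb) had a region at an outer limit. With 62.0% of all protein-coding genes having one, this count says little about cell identity. Of 4 fibroblast genes that feeder cells could contribute, Col1a1 had one and Col1a2, Thy1 and Dcn had none, and the same limit applies. The part of feeder cells in the regions described here was not tested.

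The promoters of the condensin genes are shown first because a region lay on the outer start of each gene printed, and because their letters differ between subunits. Sequences are from the RefSeq promoter table of GRCm38.p6, in which 7 of the 8 genes matched by symbol, the exception being Smc4. Each stretch runs 5′ to 3′ on the strand of the gene, from 150 bases before the tabled start to 50 after it. Capitals mark matches to the cell cycle genes homology region, called CHR below (TTTGAA or TTCGAA), the CCAAT box, the E2F letters TTTCCCGC, TTTGGCGC, TTTGCCGC or TTTCGCGC, and TATAAA, each searched on both strands. GC boxes (GGGCGG) were also searched and are left in lower case, and some matches lie upstream of the stretches printed. The 5 promoters with a CHR match are those of Smc2 (chr4:52439071-52439270, plus strand), Ncapd2 (chr6:125191537-125191736, minus strand), Ncapg (chr5:45669775-45669974, plus strand), Ncapg2 (chr12:116405286-116405485, plus strand) and Ncaph2 (chr15:89355569-89355768, plus strand).
Smc2: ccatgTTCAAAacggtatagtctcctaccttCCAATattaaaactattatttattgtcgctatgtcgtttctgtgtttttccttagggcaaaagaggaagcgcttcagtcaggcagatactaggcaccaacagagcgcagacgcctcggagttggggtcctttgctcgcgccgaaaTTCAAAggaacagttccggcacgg
Ncapd2: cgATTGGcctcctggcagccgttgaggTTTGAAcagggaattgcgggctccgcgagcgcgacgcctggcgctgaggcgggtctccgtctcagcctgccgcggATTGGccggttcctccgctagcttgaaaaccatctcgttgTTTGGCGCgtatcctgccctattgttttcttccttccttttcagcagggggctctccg
Ncapg: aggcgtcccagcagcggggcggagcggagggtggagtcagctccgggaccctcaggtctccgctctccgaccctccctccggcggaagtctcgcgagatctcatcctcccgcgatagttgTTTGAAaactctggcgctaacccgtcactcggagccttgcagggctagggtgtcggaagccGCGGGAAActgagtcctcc
Ncapg2: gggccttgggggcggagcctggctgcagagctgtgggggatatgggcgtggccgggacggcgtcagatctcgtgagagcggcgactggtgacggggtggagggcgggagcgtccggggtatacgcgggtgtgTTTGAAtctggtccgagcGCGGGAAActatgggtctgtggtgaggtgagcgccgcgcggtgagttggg
Ncaph2: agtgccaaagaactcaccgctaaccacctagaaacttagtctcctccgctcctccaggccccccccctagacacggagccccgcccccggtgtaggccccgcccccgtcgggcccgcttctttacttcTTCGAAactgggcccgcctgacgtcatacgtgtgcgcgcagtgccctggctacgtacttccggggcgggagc

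Ncapd3 had 2 tabled starts, which are shown because a region lay on the outer start and none on the inner. The outer stretch is chr9:27030015-27030214 and the inner one chr9:27060266-27060465, both on the plus strand.
Ncapd3 outer start: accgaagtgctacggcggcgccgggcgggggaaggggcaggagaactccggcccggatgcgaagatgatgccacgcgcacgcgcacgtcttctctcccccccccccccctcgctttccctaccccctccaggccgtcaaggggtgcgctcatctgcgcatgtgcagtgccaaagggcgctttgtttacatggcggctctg
Ncapd3 inner start: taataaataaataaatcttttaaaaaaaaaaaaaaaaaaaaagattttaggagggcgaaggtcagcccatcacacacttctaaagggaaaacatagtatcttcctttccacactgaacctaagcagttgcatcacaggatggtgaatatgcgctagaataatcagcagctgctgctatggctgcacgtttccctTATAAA

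Every condensin gene had an accessible region on an outer limit. The count was 8 of 8 genes, against 62.0% of all protein-coding genes with a region within 1 kb of either limit. For the 7 genes whose strand the promoter table gives, that limit was the start. A region lay within 1 kb of the start in 7 of 7, against 59.0% of 17492 protein-coding genes with a strand, and it covered the start base itself in 7 of 7, against 46.7%. For Smc4 the region covered the lower limit of the gene. At the far ends only Ncaph2 had a region, 1 of 7, which is near the background share of 11.7%.

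The region on the Smc2 start was 813 bp wide, at chr4:52438651-52439463. On the lower limit of Smc4 lay the widest of the 8, with 1420 bp, at chr3:69004258-69005677. These are the genes of the ATPase arms, and 62.5% and 97.6% of the regions that cover a protein-coding start were narrower. The kleisin genes had the narrowest. Ncaph had a region of 631 bp at chr2:127133447-127134077, and Ncaph2 of 654 bp at chr15:89355369-89356022. Both widths lay below the median of 717 bp (quartiles 512 and 923 bp) over 8167 protein-coding starts covered by a region.

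Among the HEAT-repeat subunits, Ncapd2 had a region of 948 bp at chr6:125191320-125192267 and Ncapg of 943 bp at chr5:45669280-45670222. Their condensin II counterparts had wider ones. For Ncapd3 it was 1172 bp, at chr9:27029620-27030791, and for Ncapg2 1292 bp, at chr12:116404567-116405858. In each of the 3 subunit pairs the condensin II gene had the wider region, by little for the kleisins. The comparison of widths was not among the planned counts. The groups nevertheless overlapped, at 631 to 948 bp for condensin I and 654 to 1292 bp for condensin II, and 3 genes a group are no replicates, so the difference was not tested.

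**Figure D1:**
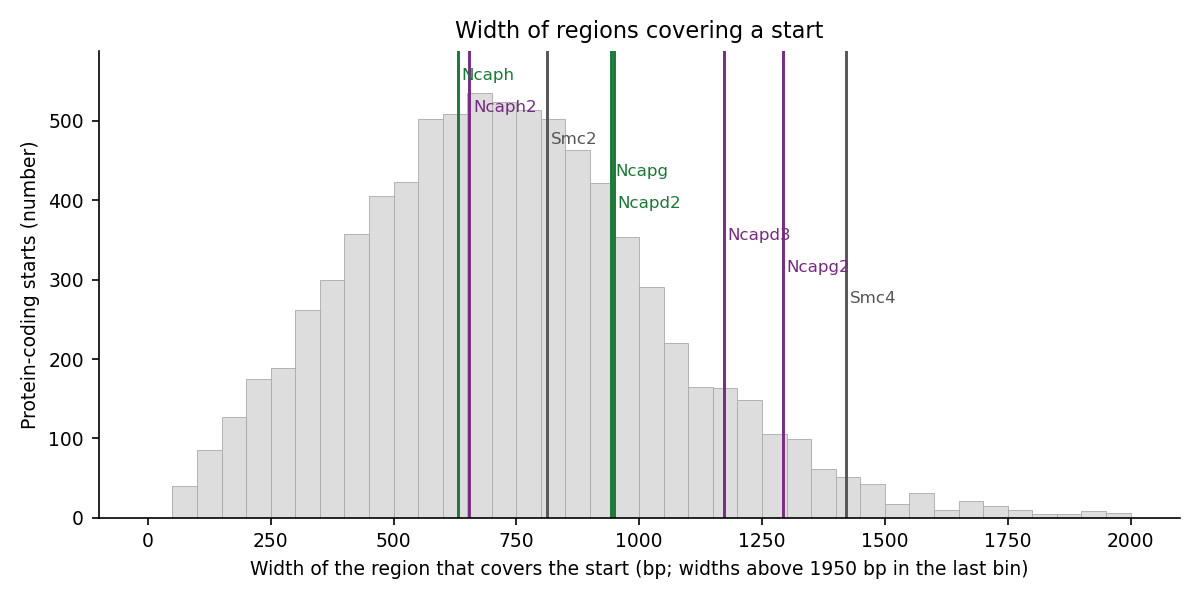
Histogram of the width in bp (horizontal axis) of the region covering the start, over 8167 protein-coding starts (vertical axis, number of starts in bins of 50 bp), with a line for each condensin gene (grey shared, green condensin I, purple condensin II). Ncaph sits just left of the highest bin and Ncaph2 in it, and Ncapd3, Ncapg2 and Smc4 in its right tail.

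The regions were not centred on the starts in the same way. Distances are from the outer limit of the gene, and the start in the promoter table lay 514 bp inside it for Ncapd2, 85 bp for Ncapg2 and 34 bp for Ncapg. At Smc2 the region reached 570 bp upstream and 242 bp downstream, at Ncapg 611 and 331 bp, and at Ncapg2 784 and 507 bp. These 3 lay mostly upstream. At Ncapd2 the region reached 167 bp upstream and 780 bp into the gene, and at Ncaph 123 and 507 bp, so these lay mostly downstream of the outer limit. From the tabled start of Ncapd2 the direction turned, with 681 bp upstream and 266 bp downstream. Ncapd3 (545 and 626 bp) and Ncaph2 (350 and 303 bp) were nearly symmetric. Over all covered protein-coding starts the midpoint of the region lay upstream in 44.5%, with a median of 24 bp downstream (quartiles -88.5 and 137 bp). A further region lay near the start of both Ncapd3, of 270 bp and at -0.982 kb (upstream), and Ncaph2, of 254 bp and at 0.698 kb (downstream).

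For 7 condensin genes the region at the start, and for Smc4 that at the lower limit, also covered a limit of a neighbouring gene. For 4 the neighbour was protein-coding. The nearer limit of Ift80, an intraflagellar transport gene, lay 58 bp from Smc4. That of Mrpl51, a mitochondrial ribosomal protein gene, lay 100 bp from Ncapd2. These distances and those below are from outer gene limits, and the tabled start of Ncapd2 lay 514 bp farther inside. Vps26b, a retromer subunit gene, began 71 bp from Ncapd3, and Lmf2, a gene of the lipase maturation factor family, 25 bp from Ncaph2. For the other 4 it was a long non-coding RNA gene: Smc2os at 257 bp from Smc2, 1600023N17Rik at 183 bp from Ncapg, D430020J02Rik at 190 bp from Ncapg2, and Gm35347, which overlapped Ncaph, with its start 1 bp from that of Ncaph. Condensin I had 1 protein-coding neighbour and 2 non-coding ones, and condensin II 2 and 1.

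In the 7 cases with both strands known, the neighbour was on the opposite strand and its start was the nearer limit, so the genes were arranged head to head. Such a start within 1 kb was present for 15.9% of protein-coding genes with a strand, and a limit of another gene of any type for 23.9%. A single region covered the condensin start and the start of the neighbour in 7 of these 7 cases. The share was 69.0% of the 2776 protein-coding genes with an opposite-strand start within 1 kb. The condensin pairs lay at most 257 bp apart, whereas that share includes pairs up to 1 kb apart, so the distances compared are unlike. Accessible starts were more frequent with the head-to-head arrangement. Whether it contributed to the count at the condensin genes was not tested, and genes with and without it were not matched for CpG content. Among genes with an opposite-strand start within 1 kb, 91.6% had a region at the start, and among the 14716 without one 52.9%. A region covered the start base itself in 79.5% of the former and 40.5% of the latter. Regions covering a start were also wider for the former, with a median of 806 bp against 679 bp. Regions carry no strand, and accessibility that belongs to the condensin gene and to its neighbour cannot be told apart.

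**Figure D2:**
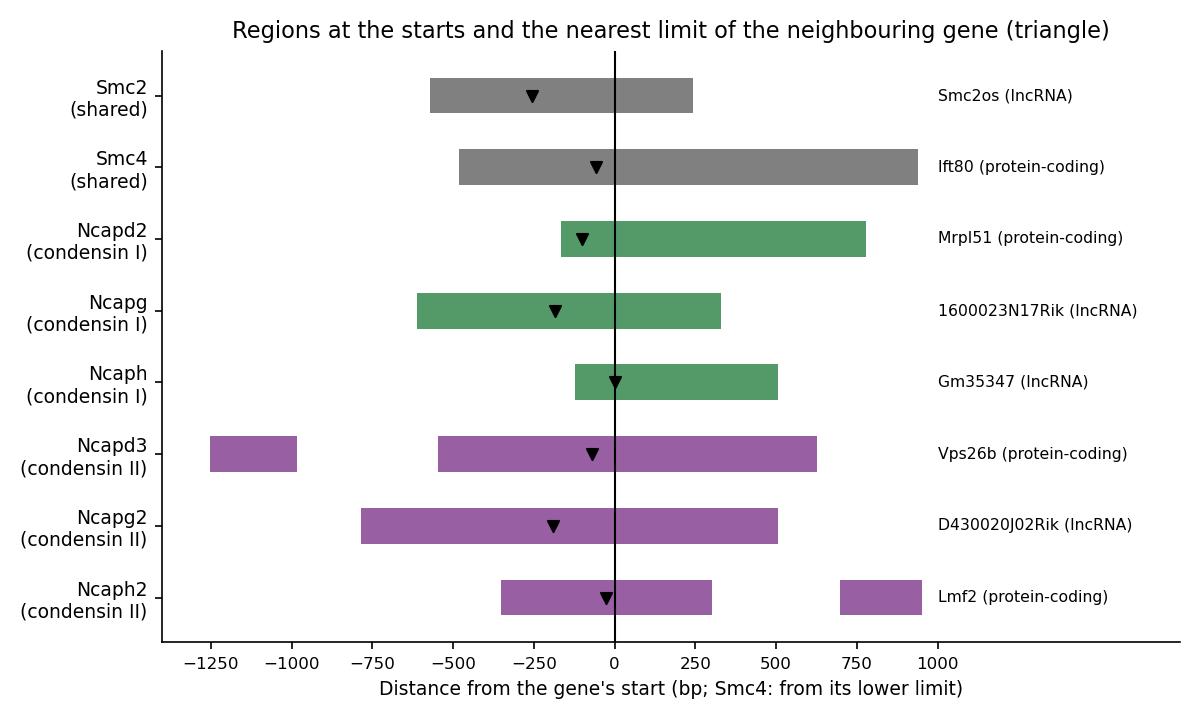
Regions within 1 kb of the start of each condensin gene, to scale in bp from the start (horizontal axis, upstream to the left; for Smc4 from its lower limit), in grey for shared, green for condensin I and purple for condensin II genes. The black triangle is the nearer limit of the neighbouring gene named at the right, which lies inside the region on the start (for Smc4, on the lower limit) in every row.

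Away from gene ends, the windows of the condensin genes held few regions. The window counts were 3 for Smc2, 5 for Smc4, 12 for Ncapd2, 3 for Ncapg, 5 for Ncaph, 6 for Ncapd3, 4 for Ncapg2 and 8 for Ncaph2. Only Ncapd2 and Ncaph2 were above the median of 7 over all protein-coding genes (quartiles 3 and 10). Of the 46 regions, 27 (58.7%) lay at an outer limit of a protein-coding gene, against 20.5% of all 76872 regions. Each window holds limits of a protein-coding gene by design, which raises this share. Of the 27, 9 lay at the starts of the condensin genes themselves and 1 at the lower limit of Smc4. Distal regions, those farther than 1 kb from every protein-coding limit, numbered 2 at Smc2, 3 at Smc4, 4 at Ncapd2, 1 at Ncapg, 2 at Ncaph, 3 at Ncapd3, 2 at Ncapg2 and 2 at Ncaph2. No condensin gene exceeded the median of 4 distal regions over all protein-coding genes (quartiles 2 and 7).

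**Figure D3:**
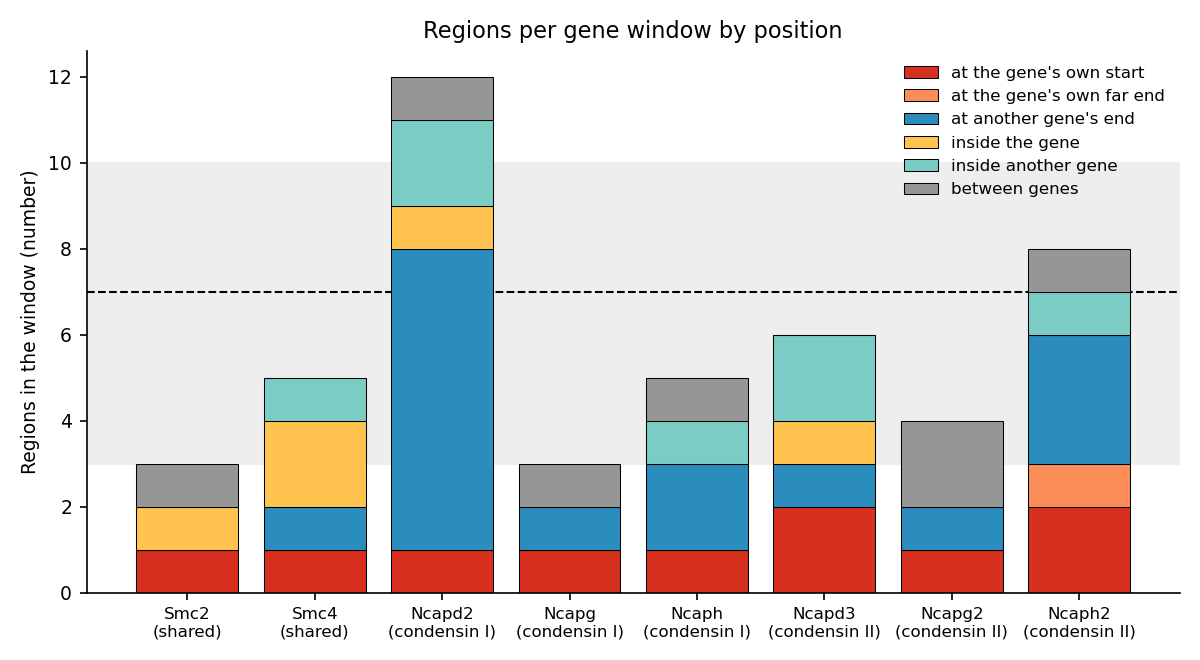
Number of regions in the window of each condensin gene (vertical axis), stacked by position (for Smc4, the own start stands for its lower limit). The dashed line is the median of 7 over all protein-coding genes and the grey band their quartiles, 3 to 10; Ncapd2 alone rises above the band, with 7 of its 12 regions at ends of other genes.

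The window of Smc2 was the emptiest for its length, with 2.01 regions per 100 kb. It contained no other protein-coding gene. Beside the region at the start, it held a region of 328 bp inside the gene, 20.4 kb from the start, and 1 of 501 bp beyond the far end, 78.2 kb from the start. Smc4 had 3.85 regions per 100 kb. A region of 193 bp lay 1.14 kb inside the gene, just outside the distance that counts as a start, and another of 311 bp at 15.5 kb. Outside the gene, 1 region of 180 bp lay inside Ift80 and 1 of 1064 bp at an end of Trim59.

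Smc4 hosts the microRNA genes Mir15b and Mir16-2, whose main products share a seed and are known as repressors of cyclins and other cell cycle genes. Their mature forms are printed with the seed (bases 2 to 8) in capitals. The hairpins lay at chr3:69009772-69009835 and chr3:69009902-69009996, both inside the Smc4 span, and the nearest region was 3.7 kb and 3.83 kb away. No region of the list therefore lay on the microRNA genes themselves.
mmu-miR-15b-5p: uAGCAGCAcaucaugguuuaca
mmu-miR-16-5p: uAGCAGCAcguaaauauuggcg

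Ncaph, the kleisin of condensin I, had 3.84 regions per 100 kb and no further region inside the gene. The others in its window were regions of 600 and 238 bp at the end of and inside Blvra, 1 of 320 bp at an end of Itpripl1, and 1 of 328 bp between genes, at -48.7 kb from the start. Ncaph2, the kleisin of condensin II, had 6.83 per 100 kb in a window with 10 other protein-coding genes. A region of 1060 bp, at chr15:89373161-89374220, lay just beyond the far end of Ncaph2. It was within 1 kb of a limit of Sco2, a gene for assembly of cytochrome c oxidase, and overlapped the spans of Sco2 and Tymp. Of the remaining regions 3 lay at ends of other genes. The windows of the kleisin genes held 3 and 6 regions at ends of protein-coding genes and 2 distal regions each.

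Ncapd2 had the highest density, 9.67 regions per 100 kb, above that of 86.7% of protein-coding genes. Its window held 8 other protein-coding genes, among them the glycolytic housekeeping gene Gapdh, and 7 of the 12 regions lay at ends of such genes. Inside Ncapd2 there was 1 further region, of 266 bp and 19.4 kb from the start. Ncapd3 had 3.61 per 100 kb, with 1 region of 216 bp inside the gene at 34.4 kb, 1 of 668 bp at the ends of Acad8 and Thyn1, and 2 of 368 and 83 bp inside Jam3, a cell adhesion gene. The D subunit windows held 7 and 1 regions at ends of other genes and 4 and 3 distal regions.

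The G subunit genes had few regions. Ncapg had 2.30 regions per 100 kb: its start, 1 of 853 bp at an end of Fam184b, and 1 of 365 bp between protein-coding genes, at -23.2 kb from the start. Ncapg2 had 2.53, with regions of 316 and 223 bp upstream, at -8.97 and -10.8 kb from the start, and 1 of 1131 bp at an end of Ptprn2. Between its start and the region at Ptprn2, Ncapg2 had a gap of 79.5 kb without a region, the longest in the 8 windows. Neither gene had a region in its body away from the start.

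**Figure D4:**
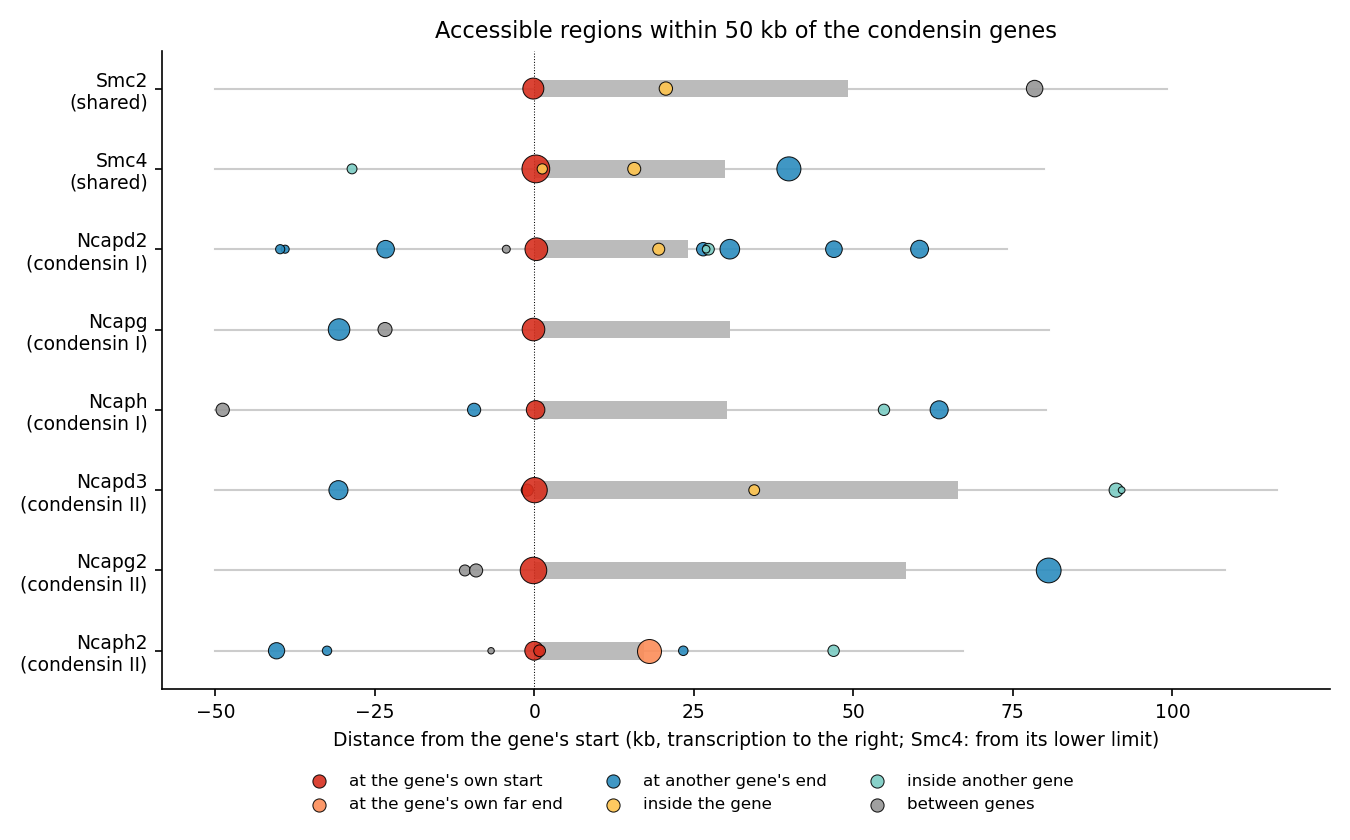
Positions of the 46 regions in kb from the start of each condensin gene (horizontal axis, transcription to the right; Smc4 from its lower limit), with the gene span as a grey bar and the window as a line. Circle area is proportional to region width and colour gives the position; the widest circles sit on the starts and at ends of other genes, and the bodies of Ncapg, Ncaph, Ncapg2 and Ncaph2 hold no region farther than 1 kb from the start.

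The windows of condensin I and condensin II genes overlapped in every count given here, and no test was made. The windows held 3, 5 and 12 regions for condensin I (median 5) and 4, 6 and 8 for condensin II (median 6), so the range of condensin I enclosed that of condensin II. Per 100 kb the order of the medians was the opposite, at 3.84 and 3.61. Distal regions had a median of 2 in each group and a total of 7 in each. Regions covered a median of 1.65% of the window for condensin I and 1.87% for condensin II. At ends of other genes lay 10 regions for condensin I, 7 of them at Ncapd2, and 5 for condensin II. With windows of 100 kb the medians were 7 and 12 regions, and the order per 100 kb reversed, to 3.04 and 4.51.

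The promoters with a region were rich in CpG. The observed to expected CpG ratio of the 300-base window, which is 1 where CpG is as frequent as its C and G content predicts, was 1.01 for Smc2, 0.935 for Ncapd2, 0.772 for Ncapg and 1.02 for Ncaph. It was 0.919 for the outer start of Ncapd3, 0.947 for Ncapg2 and 0.821 for Ncaph2. All 7 were above the median of 0.567 over 21263 windows of protein-coding genes. Of those with a region the median was 0.781, and Ncapg was below it. The region covered the whole window in 6 of the 7 and 173 of 300 bases at Ncaph. Of protein-coding windows with a ratio of at least 0.6, 88.2% overlapped a region, and of those below 0.6, 24.3%.

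The inner start of Ncapd3, 30251 bp inside the gene, was the exception. Its window had a ratio of 0.343 and 4 CpG, against 33 CpG at the outer start, and the nearest region lay 4.1 kb away. Of 2761 protein-coding genes with 2 or more tabled starts, 37.2% likewise had a region on some and not on all of them. Neither value shows whether the inner start is used in these cells.

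Matches to cell cycle promoter motifs were frequent but uneven. A CHR match, the letters bound by the MuvB complex that delays genes to G2 and mitosis, was present in 5 of the 7 windows at outer starts: Smc2, Ncapd2, Ncapg, Ncapg2 and Ncaph2. The same letters were in 19.2% of all 32851 promoter windows and in 12.8% of the 11643 protein-coding windows that overlap a region. In Ncapg the match began at -30 from the tabled start, in Ncapg2 at -18 and in Ncaph2 at -22. In Ncapd2 it began at -123, and in Smc2 the matches began at -145 and at 27 from the start. A match within the last 50 bases before the start, a limit chosen after the values were seen, was found in 3 of 7 and in 1.57% of protein-coding windows with a region.

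E2F letters, recognised by the factors that control genes of S phase, matched in Ncapd2, Ncapg and Ncapg2, 3 of 7, against 2.26% of all promoter windows and 4.44% of protein-coding ones with a region. These 3 also had a CHR match, a combination found in 0.636% of protein-coding windows with a region. The combination was not among the planned counts. The CCAAT letters, bound by NF-Y, matched in Smc2, Ncapd2 (3 times) and Ncapg, 3 of 7, near the 37.4% of all windows and 40.2% of protein-coding ones with a region. The GC box letters GGGCGG, bound by Sp1, matched in all but Ncaph, against 35.7% of all windows and 69.1% of protein-coding ones with a region. TATAAA, present in 13.6% of all windows and 5.82% of protein-coding ones with a region, was absent from the 7. The window of the inner start of Ncapd3 had it at 45 to 50, downstream of the start, together with a CHR match at -249. Ncaph had no match to any of the 5 motifs, and the outer start of Ncapd3 only a GC box. No matches of different motifs overlapped in these windows, and letters alone show neither binding nor its absence.

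**Figure D5:**
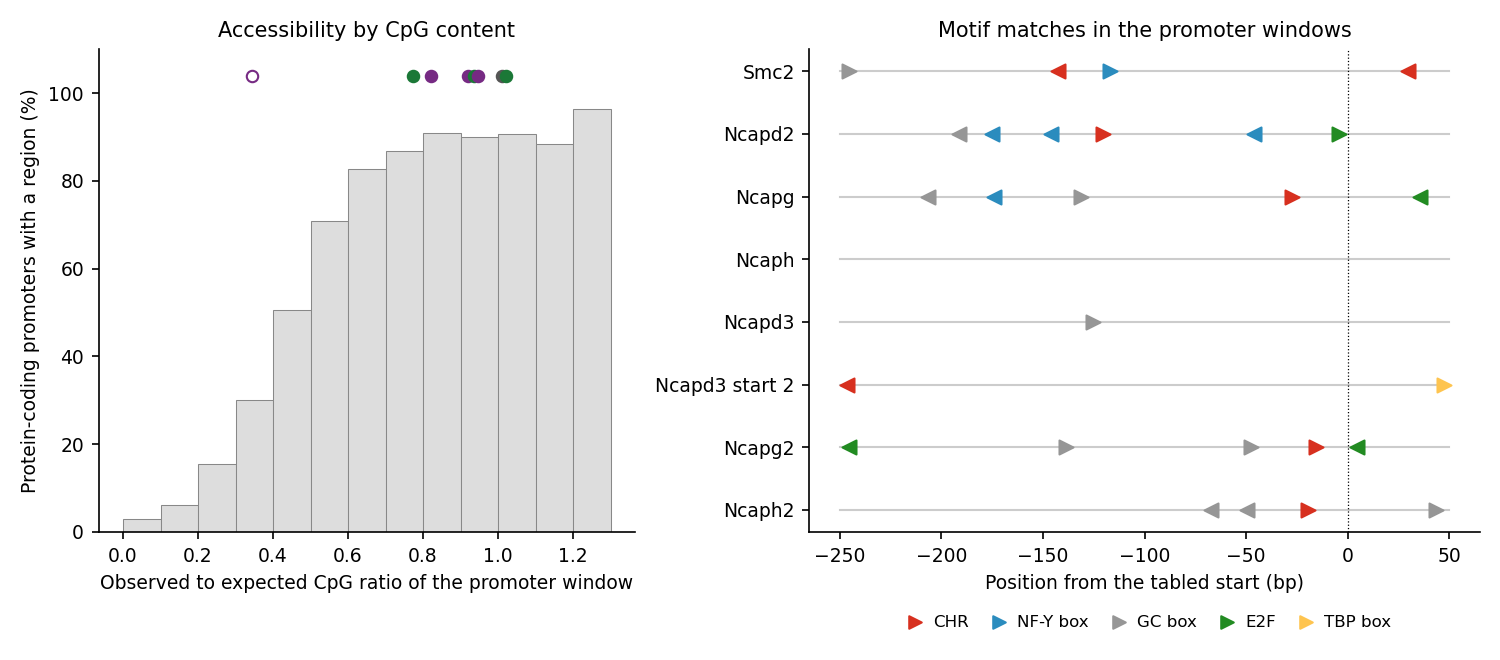
Left, share of protein-coding promoter windows that overlap a region (%) by observed to expected CpG ratio in bins of 0.1, with the condensin windows as circles above the bars at their ratio (filled with a region, open without; grey shared, green condensin I, purple condensin II). Right, motif matches by position in bp from the tabled start, arrows pointing right for the strand of the gene; a CHR match lies just before the start in Ncapg, Ncapg2 and Ncaph2, and Ncaph has no match (NF-Y box, the CCAAT letters; TBP box, TATAAA).

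Other genes of chromosome compaction also had a region at an end, and their median count of distal regions was higher. Of 15 genes that encode regulators and partners of condensin, such as the topoisomerases Top2a and Top2b, the kinases Cdk1, Plk1 and Aurkb and the chromosome periphery protein Mki67, 15 had a region at an outer limit, against the 62.0% background. Their median was 8 regions per window, with 18 at Aurkb and 15 each at Birc5 and Mcph1, and 6 distal regions. The condensin genes had medians of 5 and 2. Windows differ in length. Per 100 kb the median was 4.97 for the regulators, 3.72 for the condensin genes and 4.68 over all protein-coding genes. Mcph1, with a span of 213 kb, had 4.79 regions per 100 kb, and Birc5 14.1. An opposite-strand start within 1 kb was present for Kif4, Cdca8 and Banf1, 3 of the 11 regulator genes with a strand. The share over all protein-coding genes with a strand was 15.9%. CHR letters were found in 7 of the 14 promoter windows of these 11 genes, those of Cdca8, Cdk1, Kif4, Kmt5a, Mki67, Plk1 and Top2a, against 12.8% of protein-coding windows with a region. All 14 windows had a region.

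Of 10 genes for other SMC proteins and kleisins, 8 had a region at an outer limit, against the 62.0% background. The exceptions were Smc1b, a cohesin subunit of meiosis, and Rad21, the mitotic cohesin kleisin, which nonetheless had 20 regions in its window. No strand was given for Rad21, so only its outer limits were checked, and these need not be the start in use. Smc3, the cohesin partner of Smc1a, had 13 regions in its window. The median was 7.5 regions and 3.5 distal regions. CHR letters were found in 4 of their 9 promoter windows (Rad21l, Smc1b, Smc6 and Smchd1), of which 6 of 9 had a region, against 17.6% of all protein-coding windows. Smc1a and Smchd1 had 3 and 2 regions, and Smc2 and Ncapg 3 each. These values describe lists of 8, 15 and 10 genes, and the differences between the lists were not tested.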

How the data were processed

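Per the submitters' processing notes, the reads were handled with cutadapt, Bowtie2, Picard, SAMtools, bedtools and MACS2 2.1.1 on the build GRCm38 (mm10). Parameters, filters, any Tn5 shift and how regions of the 8 libraries were combined: none of these is stated in the sources used. The authors deposited a chromosome, start and end for each region and no count, score or value per library, so a region of 1 library counts like a region of all, and the precision of its borders is unknown.

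Regions were compared with outer gene limits of RefSeq GRCm38.p6, leaving out the mitochondrial genome, with Python 3.11.15, pandas 2.3.3 and NumPy 2.4.6. Figures were drawn with matplotlib 3.10.9. Exons were not used. Strand came from the RefSeq promoter table, which held 17492 of the 21887 protein-coding genes, and an absent strand lowers the background share of head-to-head genes. A region was at an end if it lay within 1 kb of a limit, and distal otherwise. Coordinates count from 1. The overlap code was tested on simulated data and gave 0 disagreements in 5000 comparisons with a direct count.

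No test was made: there are no values per sample and genes are not replicates. Counts stand beside the share over all protein-coding genes. The members and gene lists were chosen with earlier results of these data known. The genes named are the 8 condensin genes, neighbours at their regions, and of each list those with the most regions and those without one at an end; others were named after their values were seen. Alternatives changed the end distance, the window, the smallest region, the overlap and the gene types.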

Additional observations from a re-analysis of the deposited data

How the results depend on the processing

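No paired analysis was possible because the list holds no value per library, and leaving out replicates was not run for the same reason. The count of 8 of 8 condensin genes with a region at an outer limit, and of 7 of 7 with one at the start, was equal with ends of 500 bp, with ends of 2 kb and with regions of at least 150 bp only. The comparison of condensin I with condensin II depended on the window and on the smallest region counted. The difference in median regions per window, condensin I minus condensin II, was -1 as reported, -5 with windows of 100 kb, and 0 with regions of at least 150 bp (medians of 5 and 5). Per 100 kb it was 0.235 as reported, 0.836 with regions of at least 150 bp and 0.0457 with windows of 25 kb, and reversed to -1.46 with windows of 100 kb, where Ncapd3 had 12 regions and Ncaph 7. With windows of 100 kb the difference in counts moved by more than the spread among the genes. The reversal per 100 kb and the other alternatives for this comparison moved the differences by less than that spread. The count of single genes moved by over 1.5 times in 6 of 32 cases, all with windows of 25 or 100 kb. In windows of 100 kb Ncapd2 had 21 regions and Ncapg2 still 4. With regions of at least 150 bp only, Ncapd2 had 9 in place of 12, so 3 of its regions were narrower. What depth or merging of the libraries contributed to any count was not tested.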
